A study of Mus musculus with 10 samples.

Results

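Claudins are small membrane proteins that cross the membrane repeatedly and meet their counterparts on the neighbouring cell to form the strands of tight junctions. Some seal the space between cells and others line it with channels for cations, anions or water, so the set that a cell layer expresses sets what may pass between its cells. The enamel organ is the epithelium that forms tooth enamel. Its ameloblasts lay down and then mature the mineral, and the stratum intermedium is the cell layer that backs them. The genes described here are the claudins other than claudin-10, chosen by symbol from a fixed list of 10: Cldn1, Cldn2, Cldn4, Cldn5, Cldn6, Cldn7, Cldn8, Cldn11, Cldn12 and Cldn17. All 10 were among the 16292 genes of the ameloblast table. Of these, 9 were among the 16638 genes of the stratum intermedium table, from which Cldn2 was absent.

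The measurements came from 10 RNA-seq libraries of mouse hemi-mandible, 5 of laser-captured ameloblasts and 5 of laser-captured stratum intermedium. Each layer had 2 wild-type (WT) and 3 claudin-10 knockout (KO) libraries, and each library is called here by the prefix of its name (WT5 and WT10 for WT, KO1, KO3 and KO9 for KO). A prefix recurs in both layers and was taken to mark a mouse, which the labels do not state, so p-values measure only how much these libraries vary, and part of that may be technical. The labels used here give no age, sex, strain, deleted part of Cldn10 or driver of the deletion. The values were normalized counts per gene, scaled by the submitters separately for each layer, so levels were tested only within a layer. In a captured layer, fewer cells of a type and less RNA per cell cannot be told apart.

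The libraries differed beyond their genotype. Normalized counts summed to between 21006977 and 26856177 per library, and between 33 and 854 genes per library were listed at 0, with the most in the WT10 library of each layer. Markers of ameloblasts took 2.53% to 9.63% of the ameloblast libraries and 0.159% to 1.06% of the stratum intermedium libraries. Those of odontoblasts, pulp and bone, a list that shares Dspp with the ameloblast list, took 4.31% to 8.0% and 3.2% to 8.85%. That was more than the ameloblast markers took in every stratum intermedium library and in the WT5, KO3 and KO9 ameloblast libraries. Markers of the stratum intermedium did not separate the layers, at 0.452% to 1.44% and 0.552% to 1.24%. Keratins and other markers of squamous epithelium took 0.194% of the WT5 ameloblast library and at most 0.0599% of the others. Prefixes KO1 and KO3 carried Xist and had Ddx3y listed at 0, and the other prefixes carried Ddx3y, so sex differed within the KO group. Cldn10, the targeted gene, had its KO values below its WT values in both layers without overlap, with log2 differences of -1.38 (SE 0.46) in ameloblasts and -2.87 (SE 0.56) in the stratum intermedium.

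Of the 10 members, 9 matched a RefSeq promoter window on GRCm38.p6. The stretches of 250 bases before the start site of 4 of them are shown because Cldn1, Cldn4 and Cldn6 were among the members higher in all KO ameloblast libraries, while Cldn17 gave the smallest p for a difference between layers. Capitals mark the motifs GGGCGG, the letters of a GC box, and CAGGTG, the letters of an E-box that Snail and Zeb repressors bind, on either strand. Sequences run 5′ to 3′ on the strand of the gene, and positions count from the RefSeq start site. The Cldn6 stretch ends after 134 bases, where a GENCODE model of the gene begins.
Cldn1, minus strand, chr16:26371840-26372089: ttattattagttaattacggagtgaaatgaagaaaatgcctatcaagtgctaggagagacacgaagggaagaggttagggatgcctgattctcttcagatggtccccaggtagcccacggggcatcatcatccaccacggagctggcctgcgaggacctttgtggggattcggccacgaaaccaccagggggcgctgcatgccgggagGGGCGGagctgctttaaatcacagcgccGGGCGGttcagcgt
Cldn4, minus strand, chr5:134946935-134947184: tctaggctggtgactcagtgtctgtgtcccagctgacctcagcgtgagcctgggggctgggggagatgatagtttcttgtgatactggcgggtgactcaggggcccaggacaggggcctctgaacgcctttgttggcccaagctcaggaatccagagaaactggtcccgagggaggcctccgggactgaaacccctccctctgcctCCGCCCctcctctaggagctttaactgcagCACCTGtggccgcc
Cldn6, plus strand, chr17:23679115-23679248: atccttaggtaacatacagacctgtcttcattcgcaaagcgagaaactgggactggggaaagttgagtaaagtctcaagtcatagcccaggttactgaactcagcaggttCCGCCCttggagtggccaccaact
Cldn17, minus strand, chr16:88506979-88507228: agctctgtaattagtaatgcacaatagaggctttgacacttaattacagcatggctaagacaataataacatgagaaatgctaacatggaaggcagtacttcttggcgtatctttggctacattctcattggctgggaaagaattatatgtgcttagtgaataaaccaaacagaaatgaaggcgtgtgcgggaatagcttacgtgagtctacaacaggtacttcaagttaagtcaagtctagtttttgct
Cldn1 had GGGCGG at positions -42 and -14 from its start site. In Cldn4 the reverse complement of GGGCGG began at -44 and -5 (the latter crosses the start site and is not marked) and that of CAGGTG at -14. In Cldn6 the reverse complement of GGGCGG began at -140. Past the printed Cldn6 stretch lay CAGGTG at -93 and the reverse complement of GGGCGG at -8. The Cldn17 stretch held none of the motifs searched. In windows extended to 50 bases past the start site, GGGCGG was found in 7 of 9 members, and in 8 of their 12 windows, against 35.7% of all 32851 windows. CAGGTG was found in 3 of 9 (Cldn4, Cldn6 and Cldn7) and in 3 of 12 windows, against 20.2%. TATAAA was found in Cldn2 alone, in 1 of 12 windows, against 13.6% of all windows, and ACCGGTT, the core letters of the Grainyhead-like site, in 0 of 12, against 1.02%. These motifs were searched on both strands and do not overlap one another in the stretches shown. Over the 250 bases before the start site, Cldn1 held 55.6% G and C, that of Cldn4 62.0%, that of Cldn6 53.6% and that of Cldn17 38.4%, where the median over all windows was 52.4%.

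The first comparison asked how ameloblast captures of KO mice differed from those of WT mice. The sealing claudins Cldn1, Cldn4 and Cldn8 and the embryonic claudin Cldn6 were higher in each of the 3 KO libraries than in both WT libraries, by log2 differences between 1.41 and 2.07. The other 6 members had 95% intervals that included no difference, and none of the 10 passed correction over all genes (smallest adjusted p = 0.99 in limma). Of the 10 members, 7 were higher in KO by the fitted difference, against 53.0% of the 16212 genes tested, with a median log2 difference of 1.17 against 0.04 over all genes. An unadjusted p under 0.05 in limma with a positive difference was reached by 4 of 10 members, against 2.25% of all genes, and by adjusted p by 0 of 10, against 0.0%. The KO libraries lay above the WT libraries without overlap for 5 of 10 members, against 9.09% of all genes.

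**Figure D1:**
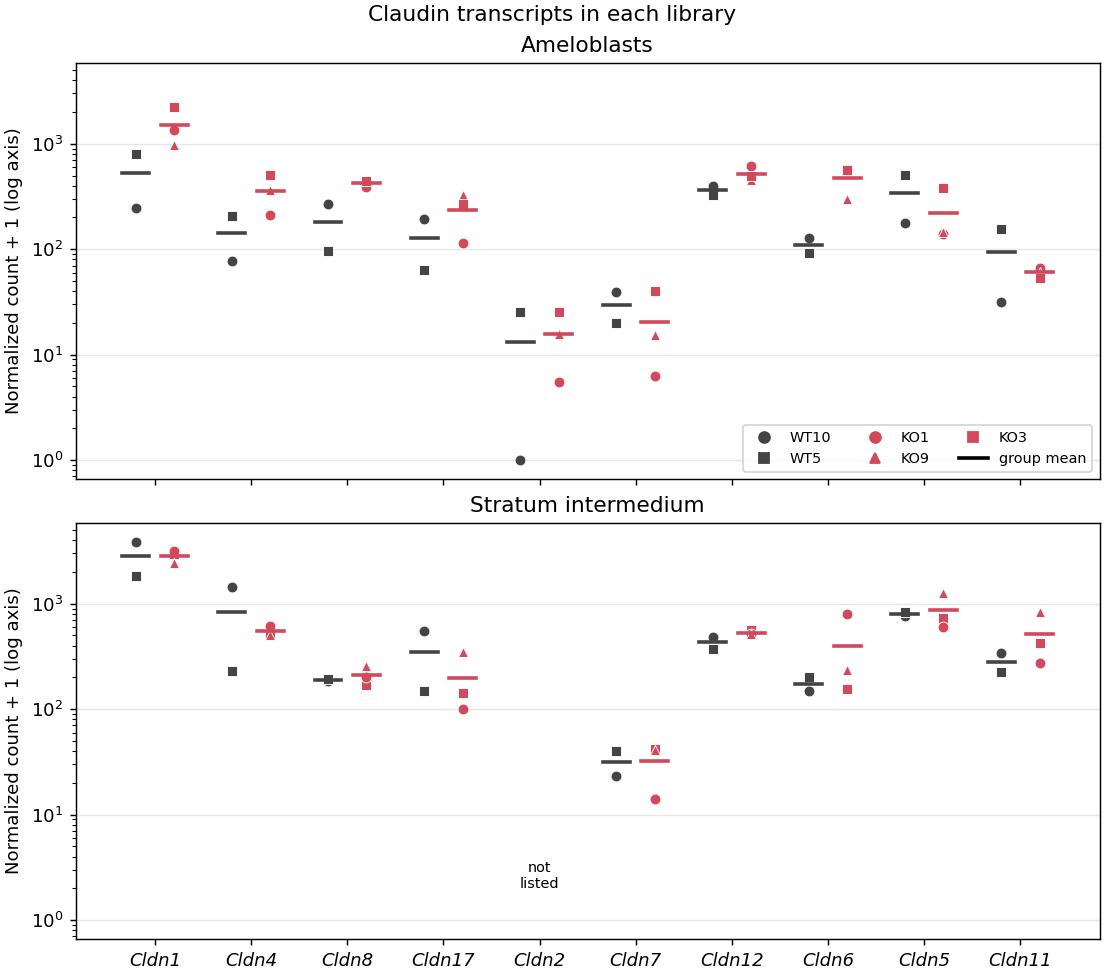
Normalized count + 1 on a log axis (vertical) for the 10 claudins (horizontal) in each library of ameloblasts (top) and stratum intermedium (bottom). Points are libraries, dark for WT and red for KO, with the marker shape giving the prefix, and bars are group means of 2 WT and 3 KO libraries; Cldn6 stands between 298 and 563.7 in KO ameloblasts and at or below 125.6 in WT.

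Among the sealing claudins, Cldn1, without which the skin barrier to water fails, stood in ameloblasts at 244 normalized counts in WT10 and 806.1 in WT5. It stood at 1343 in KO1, 967.4 in KO9 and 2218 in KO3. Each KO library was above both WT libraries, and the WT libraries differed from each other by more than KO9 differed from WT5. The group means were 525 ± 397 (SD, n = 2) and 1509 ± 642 (SD, n = 3), and the log2 difference was 1.68 (SE 0.56, unadjusted p = 0.0206 in limma).

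Cldn4, a claudin of tight epithelia that limits sodium passage, was at 77.1 in WT10, 205.9 in WT5, 210.9 in KO1, 361 in KO9 and 504.4 in KO3. KO1 and WT5 were nearly level, so that the groups were separated by a narrow gap. The log2 difference was 1.41 (SE 0.57, unadjusted p = 0.0428 in limma).

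Cldn8, which acts with claudin-4 in the kidney collecting duct, was at 267.2 in WT10 and 94.2 in WT5, and at 390.3 in KO1, 441.7 in KO9 and 444.7 in KO3. The KO libraries lay close together, and the spread of the group came from WT (180.7 ± 122 in WT, SD, n = 2, against 425.6 ± 30.6 in KO, SD, n = 3). Its log2 difference of 1.41 (SE 0.48) had an unadjusted p of 0.0221 in limma.

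Cldn6, a claudin of embryonic epithelia that is low in most adult tissues, had the smallest p of the 10 and ranked 7 of all genes tested. Its gene lies on chromosome 17 from 23679249 to 23682446 in GRCm38. It was at 125.6 in WT10, 91.7 in WT5, 563.7 in KO1, 298 in KO9 and 559.8 in KO3. The lowest KO library was more than the sum of both WT libraries. The log2 difference was 2.07 (SE 0.43, 95% interval 1.06 to 3.08, unadjusted p = 0.00187 in limma).

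The channel-forming claudins showed no such separation in ameloblasts. Cldn17, an anion channel, was at 192.3 in WT10, 63.2 in WT5, 113.6 in KO1, 323.3 in KO9 and 268.3 in KO3. KO1 lay between the WT libraries (log2 difference 0.95, SE 0.67, unadjusted p = 0.197 in limma). Cldn2, a channel for cations and water whose gene is on the X chromosome, was listed at 0 in WT10 and at 24.3 in WT5, 4.53 in KO1, 14.7 in KO9 and 24.6 in KO3. The 95% interval of its log2 difference ran from -2.79 to 5.55, so no difference was detectable at this level.

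The remaining epithelial members did not reach an unadjusted p under 0.05. Cldn12, which differs from most claudins in lacking the C-terminal motif that binds scaffold proteins, was at 400.1 and 322.5 in WT10 and WT5 and at 616.8, 448.5 and 496.8 in KO1, KO9 and KO3. All KO libraries were above both WT libraries, yet the log2 difference of 0.52 (SE 0.30) had an unadjusted p of 0.129 in limma. Cldn7, a claudin of kidney and gut epithelium, was between 5.23 and 39.0 in all 5 libraries, with WT and KO overlapping (log2 difference -0.85, SE 1.12).

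The members best known from other cells overlapped between genotypes. Cldn5, the main claudin of endothelium, was at 174.8 and 505.1 in WT10 and WT5 and at 139.5, 145 and 377.5 in KO1, KO9 and KO3. Markers of endothelium other than Cldn5 took 0.0122%, 0.0387%, 0.0155%, 0.0194% and 0.0221% of those libraries, all 15 listed and above 0. The highest value of both fell in WT5 and the second highest in KO3, and the part of vessels in the Cldn5 level was not tested. The log2 difference was -0.59 (SE 0.64). Cldn11, the claudin of myelin and of Sertoli cell junctions, was at 30.8 and 154.7 in WT10 and WT5 and between 52.8 and 64.9 in KO (log2 difference -0.23, SE 0.78).

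The count of 4 members at an unadjusted p under 0.05 was 2 (Cldn1 and Cldn6) without the KO9 library and 1 (Cldn6) without the KO3 library. Of all genes 2.92% and 1.65% reached that threshold in those fits, against 3.07% with all libraries. KO1 is alone in its library group, so a block on that group takes no genotype difference from KO1. With the library group of the labels as a block the count was 5, Cldn17 included (log2 difference 1.41, unadjusted p = 0.0431 in limma), against 2.18% of all genes. With sex in the model, which leaves KO9 as the sole KO library to set against WT, it was also 1, and Cldn6 had a log2 difference of 1.46 (unadjusted p = 0.0246 in limma).

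**Figure D2:**
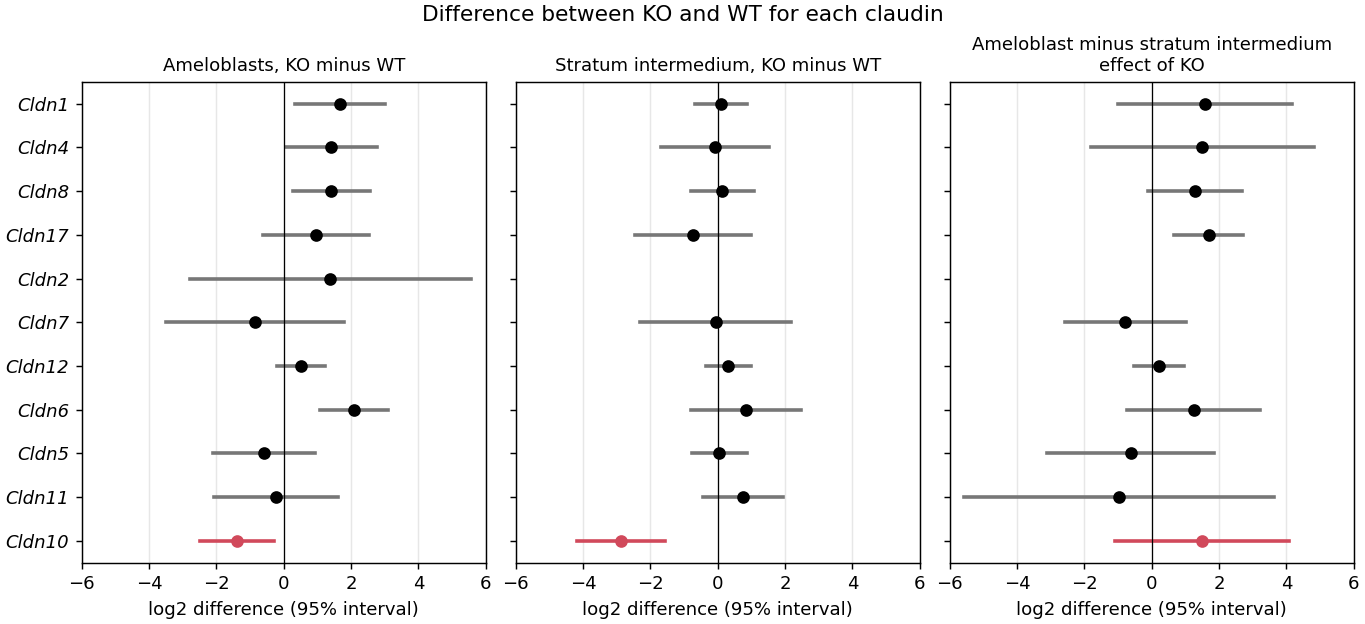
Log2 differences of limma (points) with 95% intervals (bars) for the 10 members and, in red, the targeted gene Cldn10, KO minus WT in ameloblasts (left), in the stratum intermedium (middle), and the ameloblast effect minus the stratum intermedium effect (right). In ameloblasts the intervals of Cldn1, Cldn4, Cldn6 and Cldn8 lie above 0, and in the stratum intermedium all 9 intervals of the members include 0.

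In the stratum intermedium the same claudins did not separate by genotype. Of 9 members, 6 were higher in KO by the fitted difference, against 51.9% of the 16543 genes tested, with a median log2 difference of 0.10 against 0.02 over all genes. An unadjusted p under 0.05 with a positive difference was reached by 0 of 9, against 1.27% of all genes, and with a negative difference by 0 of 9, against 0.786%. By adjusted p in limma 0 of 9 passed, against 0.0% of all genes. The KO libraries lay above the WT libraries without overlap for Cldn12 alone of the 9, against 7.76% of all genes.

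Cldn1 was at 3852 in WT10, 1820 in WT5, 3146 in KO1, 2443 in KO9 and 2963 in KO3. The 3 KO values lay between the WT values, with a log2 difference of 0.10 (SE 0.32, 95% interval -0.66 to 0.86). Cldn4 was at 1446 in WT10, 228.3 in WT5, 611.5 in KO1, 507.3 in KO9 and 514.7 in KO3, again with all KO libraries between the WT libraries. Its KO-minus-WT difference depended on the WT library used: it was 1.25 without WT10 (unadjusted p = 0.0118 in limma) and -1.41 without WT5 (unadjusted p = 0.00331 in limma), where the spread of the KO libraries stands in for that of the single WT library. Cldn8 was between 168.7 and 255.4 in all 5 libraries, with a log2 difference of 0.14 (SE 0.40, 95% interval -0.79 to 1.07).

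Cldn6 was at 146.2 in WT10, 201.8 in WT5, 803 in KO1, 233.5 in KO9 and 153.3 in KO3. The KO1 library stood apart from the other 4, and the log2 difference of 0.83 (SE 0.69) was 0.14 without it. Cldn17 was at 548.7 in WT10, 146.6 in WT5, 99.9 in KO1, 345.6 in KO9 and 142.7 in KO3. The genotypes overlapped, with a log2 difference of -0.73 (SE 0.73, unadjusted p = 0.346 in limma). Cldn12 was at 487.3 and 369.1 in WT10 and WT5 and at 519.9, 509.4 and 557.2 in KO1, KO9 and KO3 (log2 difference 0.32, SE 0.28, unadjusted p = 0.296 in limma).

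Cldn5 was at 758.6 and 838.2 in WT10 and WT5 and at 602.7, 1257 and 724.3 in KO1, KO9 and KO3, with a log2 difference of 0.04 (SE 0.35). Cldn11 was at 336.4 and 226.1 in WT and at 275.5, 842.1 and 426.5 in KO1, KO9 and KO3. KO9 held the highest value of both genes, while its endothelial markers, at 0.0662% of the library, were within the 0.0506% to 0.0666% of the other 4. Markers of glia and Schwann cells other than Cldn11 took 0.0283% of that library and 0.0173% to 0.0294% of the others, with Mag listed at 0 in KO1. Cldn11 was also on the list of odontoblast, pulp and bone markers. The rest of that list took 5.0% of the KO9 library and 3.2% to 8.85% of the others. The part of any of these cells in the Cldn11 level was not tested. Cldn7 was between 13.1 and 40.9.

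The count of 0 members at an unadjusted p under 0.05 became 2 (Cldn1 and Cldn4) without WT10, 1 (Cldn4) without WT5 and 1 without KO1, where Cldn11 had a log2 difference of 1.12 (unadjusted p = 0.0466 in limma). In those fits 3.00%, 10.4% and 1.60% of all genes reached that threshold, against 2.06% with all libraries, so the count without WT5 is near its background. With library group as a block Cldn11 had an unadjusted p of 0.0169 in limma. KO1 is alone in its group, so that fit, like leaving out KO1, takes no genotype difference from it.

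A further test asked whether the KO effect differed between the layers, from the ameloblast minus stratum intermedium log2 value within each prefix. The largest support was for Cldn17, whose effect was more positive in ameloblasts by 1.69 on the log2 scale (SE 0.40, 95% interval 0.66 to 2.71, unadjusted p = 0.00804 and adjusted p = 0.864 in limma). Of 9 members, 6 had a more positive effect in ameloblasts, against 50.4% of 15567 genes. An unadjusted p under 0.05 with a positive difference was reached by 1 of 9, against 2.57% of all genes, and an adjusted p by 0 of 9, against 0.0%. A share of 1 in 9 rests on a single gene.

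Within a prefix, Cldn17 was lower in the ameloblast table than in the stratum intermedium table by 1.51 in WT10 and 1.20 in WT5 on the log2 scale, as the layer differences of -1.51 and -1.20 give. In KO1, KO9 and KO3 the layer differences were 0.18, -0.10 and 0.91. All 3 KO prefixes were therefore above both WT prefixes. The share of all genes with such a split was not counted, and Cldn17 was singled out for the smallest p of the members. Its difference between genotypes kept its sign and lay between 1.40 and 1.90 on leaving out each prefix in turn. Cldn8, whose gene lies on the same chromosome 16, at 88560828 to 88563183 against 88505807 to 88506978 for Cldn17, had layer differences of 0.53 and -1.01 in WT10 and WT5 and of 0.95, 0.79 and 1.39 in KO1, KO9 and KO3. The genotypes did not overlap for Cldn8, again with no share of all genes to set beside it. Its difference of 1.28 (SE 0.55) had an unadjusted p of 0.065 in limma. With sex as a covariate the Cldn17 difference was 1.26 (unadjusted p = 0.0683 in limma).

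For Cldn1 and Cldn4 this test turned on the WT10 prefix. Their layer differences were -3.98 and -4.21 in WT10, and between -1.53 and -0.03 in the other 4 prefixes. The differences between genotypes, 1.58 (SE 1.01) and 1.50 (SE 1.30), were 0.18 and -0.54 without WT10. The effect on Cldn6 was more positive in ameloblasts by 1.24 (SE 0.77, unadjusted p = 0.167 in limma). The difference between layers was therefore not shown for Cldn1, Cldn4, Cldn6 or Cldn8, nor after correction for Cldn17 (adjusted p = 0.864 in limma). The count of 1 member at an unadjusted p under 0.05 was 2 (Cldn8 and Cldn17) without WT10 and 3 (Cldn1, Cldn4 and Cldn17) without WT5. Of all genes 4.37% and 10.9% reached that threshold in those fits, against 4.8% with all prefixes.

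**Figure D3:**
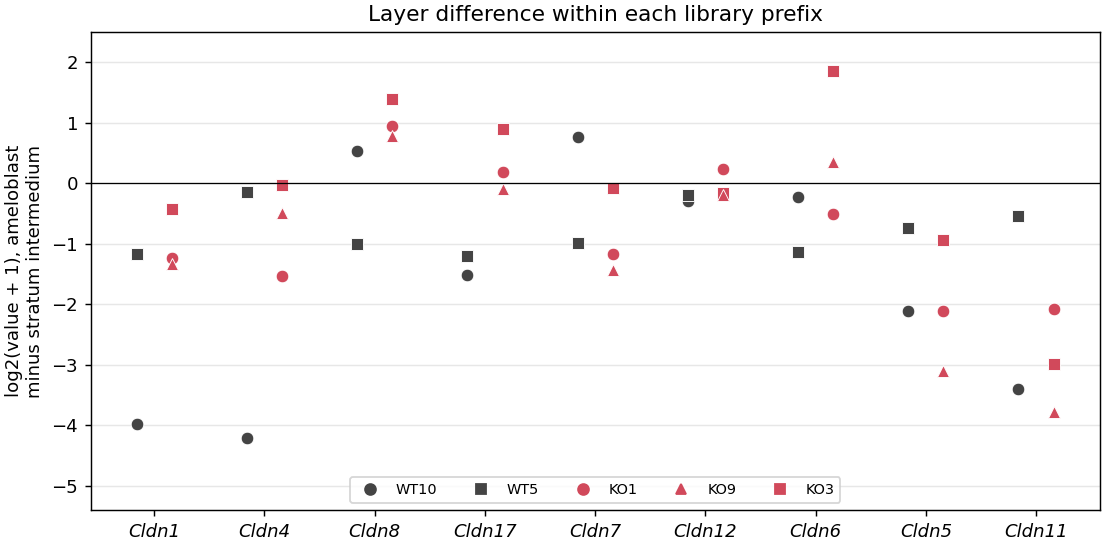
Ameloblast minus stratum intermedium difference of log2(value + 1) (vertical) for each of the 9 claudins listed in both tables (horizontal), with a point for each library prefix, dark for WT and red for KO. The tables were scaled separately, so the height of a gene's points is not a tested level; for Cldn17 both WT prefixes lie at -1.20 or below and the KO prefixes at -0.10 or above.

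The make-up of the claudin pool was compared within each library. The lowest values of a library are not multiples of a common step, so the submitters' scaling was not a single factor per library, and any part of it that differs between genes carries into these comparisons and was not tested. Levels of different genes were compared as normalized counts per kb of exon length. In the stratum intermedium, Cldn5 averaged 590.6 ± 177 per kb and Cldn1 587.7 ± 158 (SD, n = 5), followed by Cldn4 at 364.3 ± 254, Cldn11 at 225.3 ± 132, Cldn17 at 219 ± 161 and Cldn6 at 178.7 ± 162. Cldn12 (115.6 ± 16.9) and Cldn8 (84.9 ± 14.1) were lower, and Cldn7 (15.9 ± 6.53) was the lowest of the 9, below each other member in each library. These means pool the genotypes, and the order of the middle members turned with genotype: Cldn17 averaged 296.6 per kb in WT and 167.3 in KO, Cldn11 150.4 and 275.2, and Cldn6 101.1 and 230.4. In ameloblasts the leading members were Cldn1 at 230.5 ± 151, Cldn6 at 190.4 ± 132, Cldn5 at 189.5 ± 116, Cldn17 at 163.9 ± 91.3, Cldn4 at 149.7 ± 90.5, Cldn8 at 139.1 ± 63.2 and Cldn12 at 108.1 ± 26.1. Differences between these 7 were not tested, the SDs pool the genotypes, and the pooled order differs from that of WT. In WT alone Cldn5 led at 240.1 per kb, with Cldn1 at 108.5 and Cldn6 the lowest of the 7 at 63.1. In KO alone Cldn1 led at 311.8, followed by Cldn6 at 275.3, with Cldn5 at 155.8. Cldn11 averaged 38.9 ± 25.5, Cldn7 11.9 ± 7.69 and Cldn2 4.10 ± 3.38.

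As a percentile of all listed genes per kb, Cldn1 lay between 82.6 and 90.7 in the stratum intermedium libraries and between 43.4 and 85.4 in the ameloblast libraries. Cldn6 lay between 52.4 and 84.9 in the stratum intermedium and, in ameloblasts, at 41.7 and 51.1 in WT and at 69.1 to 80.7 in KO.

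Shares were taken of the summed value per kb of all 11 claudins other than Cldn10 listed in both tables. Cldn1, Cldn4, Cldn5 and Cldn11 each had a smaller share in the ameloblast library than in the stratum intermedium library of all 5 prefixes. Cldn1 took 1.93% to 10.7% of the pool in ameloblasts and 16.9% to 24.6% in the stratum intermedium, Cldn5 2.2% to 17.0% and 15.0% to 29.7%, and Cldn11 0.632% to 3.95% and 5.05% to 15.1%. The two-sided exact sign-flip permutation p was 0.0625 for each, the smallest that 5 pairs allow, and 0.141 after adjustment over 9 members. The sum included Cldn20, a claudin with a coding-only gene model of 660 bases inside the opposite-strand gene Tfb1m, which took 41.9% to 73.2% of the pool in the 5 ameloblast libraries and 4.98% to 22.6% in the stratum intermedium.

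With the sum taken over the 9 members alone, which leaves out both Cldn20 and Cldn34c1, Cldn1 was the 1 member with a smaller share in ameloblasts in all 5 prefixes (7.23% to 24.0% against 18.0% to 29.6%). Cldn4 then had a smaller share in ameloblasts in 2 prefixes and a larger one in 3. Cldn6 took 5.59% to 25.9% of the members' sum in ameloblasts and 2.77% to 20.1% in the stratum intermedium, and was larger in ameloblasts in 4 of 5 prefixes, as were Cldn8, Cldn12 and Cldn17 (exact permutation p = 0.125 each). Endothelial markers took 0.0122% to 0.0387% of the ameloblast libraries and 0.0506% to 0.0666% of the stratum intermedium libraries, without overlap, and their part in the Cldn5 share was not tested.

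**Figure D4:**
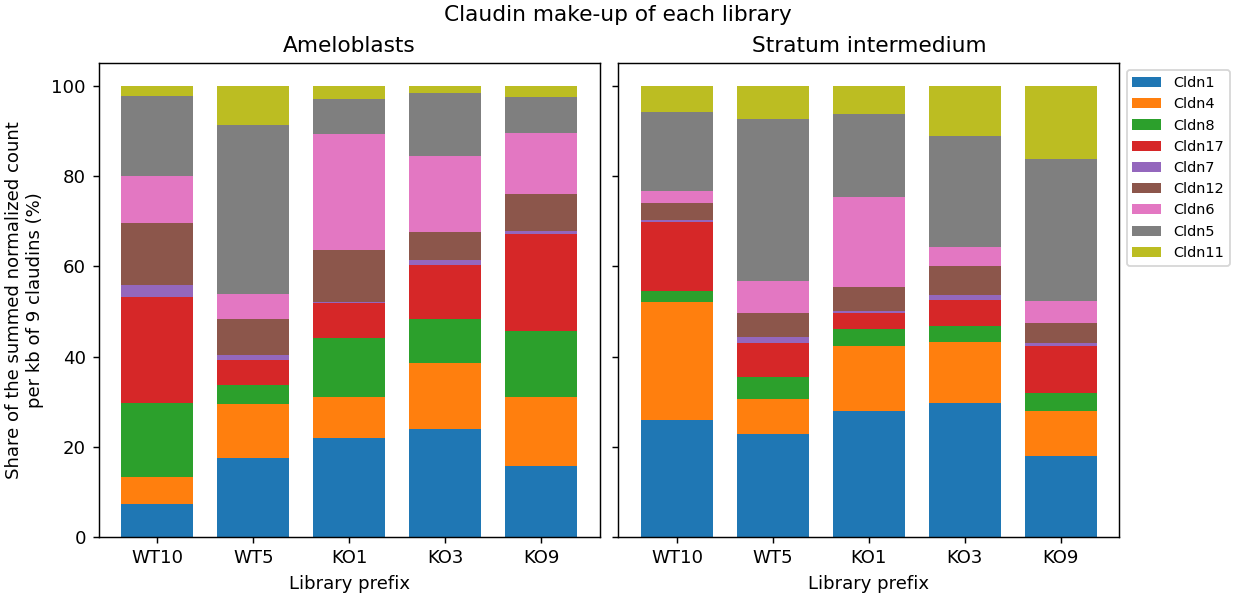
Share of each of the 9 claudins listed in both tables in their summed normalized count per kb (vertical, percent) for each library prefix (horizontal), in ameloblasts (left) and the stratum intermedium (right). Cldn1 takes 18.0% to 29.6% of the stratum intermedium bars and 7.23% to 24.0% of the ameloblast bars.

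Few other claudins were listed. Of 23 further claudin symbols searched, of which Cldn25, Cldn26 and Cldn27 have no gene model in GENCODE M21, 4 were listed: Cldn20 and Cldn34c1 in both tables, Cldn19 in ameloblasts and Cldn9 in the stratum intermedium. Cldn9, whose gene lies next to Cldn6 on chromosome 17 (23682584 to 23684026), was listed at 0 in WT10 and at 2.19 in WT5, 22.5 in KO1, 15.5 in KO9 and 28.7 in KO3. It was higher in all KO libraries at a level near the listing floor (unadjusted p = 0.0456 in limma), and it could be listed only through the KO libraries. Cldn3, a common epithelial claudin whose gene lies near Cldn4 on chromosome 5, was not in either table. Cldn20, at percentile 92.3 to 97.3 of genes per kb in ameloblasts, averaged 999.8 ± 369 in WT and 1427 ± 760 in KO ameloblasts, and 309.6 ± 16.4 and 190.1 ± 83.9 in the stratum intermedium. Cldn34c1 ranged from 3.67 to 123.8 in ameloblasts and from 124.8 to 266.5 in the stratum intermedium, and Cldn19 from 0 to 22.2 in ameloblasts.

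Membrane proteins that share tight junctions with claudins were described from a list of 17. Of 16 tested in ameloblasts, 13 had a positive difference, against 53.0% of all genes (median log2 0.53 against 0.04 over all genes). Of the 16, 4 had a positive difference at an unadjusted p under 0.05, against 2.25% of all genes, with 0 past correction. F11r, the junctional adhesion molecule A, averaged 2079 ± 676 in WT and 3784 ± 461 in KO (log2 0.90, SE 0.27). Occludin (Ocln), a four-pass strand protein, was at 75.8 and 224.8 in WT and at 299.7, 586.3 and 637.7 in KO1, KO9 and KO3 (log2 1.88, SE 0.57). Marveld2, the protein of junctions where 3 cells meet, was listed at 0 in WT10 and at 17.4 in WT5, and at 39.6 to 73.5 in KO. The other member at that threshold, named after its value was seen, was the adhesion receptor Cxadr (log2 1.02, SE 0.34). Epcam, which binds claudin-7, was higher in all 3 KO libraries with an unadjusted p of 0.0578 in limma.

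In the stratum intermedium 11 of 16 partners had a positive difference, against 51.9% of all genes, with a median log2 difference of 0.04. None of the 16 had a positive difference at an unadjusted p under 0.05, against 1.27% of all genes, and 0 had a negative one. Ocln averaged 948.1 ± 454 in WT and 941.1 ± 274 in KO. Esam, an adhesion molecule of endothelium, had the smallest p of the list (1084 and 1231 in WT, 1338 to 1582 in KO, unadjusted p = 0.124 in limma), followed by the tricellular junction gene Ildr2 (1283 ± 251 against 874.4 ± 420).

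**Figure D5:**
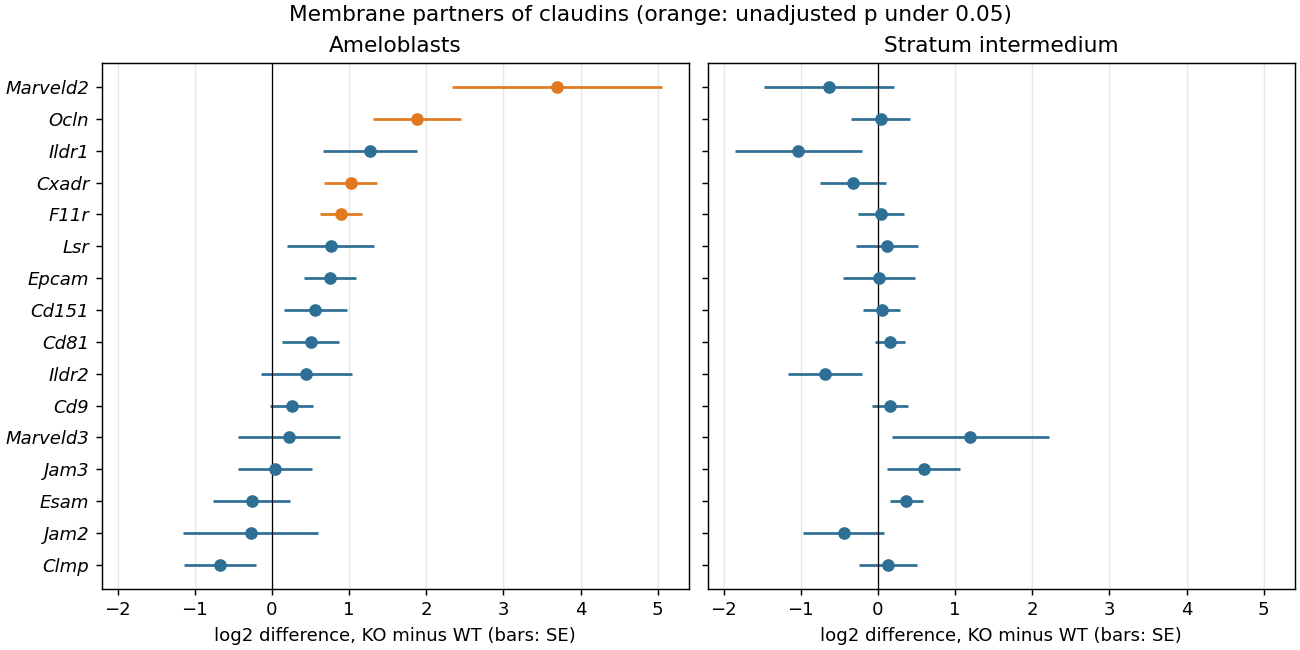
Log2 difference KO minus WT (horizontal) with its standard error (bars) for 16 membrane partners of claudins (vertical) in ameloblasts (left) and the stratum intermedium (right), in orange where the unadjusted p in limma was under 0.05. In ameloblasts Ocln, F11r, Cxadr and Marveld2 are orange, and in the stratum intermedium none is.

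Scaffold and polarity proteins, which anchor the strands to the cytoskeleton, showed both directions in ameloblasts. Of 21 tested, 9 were higher by the fitted difference, against 53.0% of all genes, and 12 lower. An unadjusted p under 0.05 was reached by 0 of them, against 3.07% of all genes. The smallest p-values were those of Pard6b, listed at 0 in WT10 and at 25.5 to 97.3 in KO, and of Sympk (212.5 and 196.9 in WT, 100 to 160.5 in KO). In the stratum intermedium 5 of 20 were higher in KO by the fitted difference, against 51.9% of all genes, and 15 were lower. Of the 20, 2 were lower at an unadjusted p under 0.05, against 0.786% of all genes. Tjp1, which encodes ZO-1, the scaffold to which most claudins bind, was at 2341 and 1644 in WT and at 1150, 1022 and 1501 in KO1, KO9 and KO3 (log2 -0.70, SE 0.27). Magi2 averaged 546.8 ± 174 and 302.7 ± 36.8 (log2 -0.82, SE 0.34). Tjp1 in ameloblasts averaged 1831 ± 611 and 1956 ± 199, and Tjp3 was not in either table.

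Genes that act on claudin expression or turnover were described in the same way. Of 20 such genes in each layer, 1 reached an unadjusted p under 0.05, higher in KO, in each, against 2.25% of all genes in ameloblasts and 1.27% in the stratum intermedium. In ameloblasts it was the protease inhibitor Spint1 (703.4 ± 296 against 1250 ± 316), with the epithelial transcription factor gene Trp63 next (2584 ± 1331 against 4121 ± 613, unadjusted p = 0.0664 in limma). In the stratum intermedium it was the repressor gene Ovol2, listed at 0 in WT10 and at 14.3 in WT5 and 32.7 to 51.7 in KO, with the protease gene St14 next (641.4 ± 68.9 against 458.2 ± 158).

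Marker lists moved in the comparisons of both layers, with directions counted by the fitted log2 difference. Of 15 stratum intermedium markers, 14 were higher in KO ameloblast captures, against 53.0% of all genes, and 4 of the 15 were higher at an unadjusted p under 0.05, against 2.25%. Their summed share was 1.33% and 0.452% in WT and 1.08% to 1.44% in KO. All 15 were above 0 in all libraries. Against the same 53.0%, 3 of 9 listed squamous epithelium markers were higher in KO, with shares of 0.00605% and 0.194% in WT and 0.00917% to 0.0599% in KO. Of the 9, 1 was higher at an unadjusted p under 0.05, against 2.25% of all genes. It was Dsg1a (log2 1.12, SE 0.35, unadjusted p = 0.015 in limma). Krt13, counted as higher, was listed at 0 in WT10 and at 12120 in WT5, and averaged 6061 in WT and 1412 in KO. Of 10 listed ameloblast markers 8 were higher in KO, again against 53.0%. All 12 skeletal muscle markers were higher in KO by the fitted difference, against the same 53.0%, with 0 at an unadjusted p under 0.05, against 2.25%. Not all had the higher mean in KO: Mylpf averaged 7382 in WT and 5686 in KO. Their shares were 0.0236% and 0.445% in WT and 0.0839% to 0.323% in KO. All 5 listed red blood cell markers were lower, where 53.0% of all genes were higher. Of these 5, 4 had an unadjusted p under 0.05, against 0.82% of all genes lower at that threshold. The 5 together took 0.244% and 1.28% in WT and 0.0814% to 0.144% in KO. In the stratum intermedium, 51.9% of all genes were higher in KO. There 11 of 12 skeletal muscle, 10 of 10 fibroblast and pericyte and 13 of 16 endothelial markers (Cldn5 included) were higher. Of stratum intermedium markers 3 of 15 were higher, of ameloblast markers 3 of 10, of squamous markers 4 of 9 and of red blood cell markers 1 of 6. The glia list had 5 of 11 higher and the odontoblast, pulp and bone list 6 of 11 (Cldn11 included in both). At an unadjusted p under 0.05, 2 muscle markers and 1 fibroblast marker were higher, against 1.27% of all genes. The part of these cells in the claudin differences was not tested.

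The genes most like each member were sought by the correlation of log2(value + 1) over the 10 libraries, with each layer centred on its own mean, among 15558 genes. These libraries come from 5 prefixes, so the values describe likeness in this set only. The highest was that of Cldn4 with the desmosomal cadherin Dsg1a (r = 0.979), which is on the squamous epithelium list. Rnd2 was also among the genes most like Cldn4. Cldn1 was most like Th, Irx2 and Kdm1b, Cldn6 most like Cpne2, Tuft1 and Mctp2, and Cldn8 most like Zdhhc13, Cldnd1 and Slc37a3, all with r of at least 0.919. Cldn17 was most like D030025E07Rik, Rnd3 and Gm20695, and Cldn12 most like Cers5, Sdf2 and Zfp2. Cldn5 was most like Setdb1, Asb3 and Cnot6l, none of them on the endothelial list, Cldn7 most like Gm45509, Gm44973 and Ryk, and Cldn11 most like H2az2, Slc9a3r2 and Sh2d3c. Among the members themselves the closest pair was Cldn1 and Cldn4 (r = 0.846), followed by Cldn6 and Cldn8 (r = 0.672) and by Cldn8 and Cldn12 (r = 0.668), while Cldn5 and Cldn8 had the lowest value (r = -0.492).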

How the data were processed

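RNA was measured in 10 libraries (2 WT and 3 KO in each of 2 layers). Per the labels' protocols, laser-captured tissue from frozen slides was lysed, RNA was extracted with a micro-scale kit, and stranded polyA libraries were made. The signal values are normalized counts per gene deposited by the authors in a table for each layer; per the submitters' processing notes, GRCm38 was the build and the tools named are STAR 2.5.2b, featureCounts, DESeq, Picard 2.8.1 and FastQC, and the table names give Ensembl release 101 and outliers left out, with no settings. Each listed gene reached 10 in 3 or more libraries. Whole reads could not be recovered, so depth is unknown and no intervals for counting error were given. 0 columns were left unused.

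Each table was fitted on its own in R 4.3.3 by limma 3.58.1 on log2(normalized count + 1), two-sided and with a mean-variance trend, for genes whose mean was 10 or more, with Benjamini-Hochberg adjustment over all genes and a threshold of 0.05. The layer difference of the KO effect was fitted on differences within prefixes. Exon lengths and positions came from GENCODE M21, and promoter sequences from RefSeq. Prefix pairs deviated together across layers (r of 0.201 to 0.311 over genes, where WT5 and WT10 must give the same value). Alternatives were other pseudocounts, filters, scalings, variance models, blocks, sex as a covariate and leaving out libraries. The fits were tested on simulated data. Named genes were all members, listed other claudins, in each junction and regulator list the 2 genes of lowest p, a few junction genes named for their role, and the 3 genes most like each member. Some items under this rule are not reported here. Members and lists were chosen with earlier results of these data known. Library weights used statmod 1.5.0, and figures matplotlib 3.10.9 in Python 3.11.15.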

Additional observations from a re-analysis of the deposited data

How the results depend on the processing

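The count of genes past correction was 0 in each comparison under all alternatives run, pseudocounts of 0.5 and 8, a minimum mean of 50, no filter, quantile and median-ratio scaling, an adjusted p threshold of 0.1 and leaving out libraries included. At an unadjusted p under 0.05 limma had 498, 340 and 747 genes in ameloblasts, the stratum intermedium and the layer difference.

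The count of ameloblast members at an unadjusted p under 0.05, 4 in the reported fit, was 1 with sex as a covariate, 1 with the replicate number as a block, 5 with library group as a block, and 1 to 4 on leaving out each library. The stratum intermedium count of 0 was 1 with library group as a block, 1 with sex as a covariate, and 0 to 2 on leaving out each library. The layer-difference count of 1 was 2 with a minimum mean of 50, 2 with library weights, 0 with sex as a covariate, and 1 to 3 on leaving out each prefix. The 4 members whose share differed between layers in the same direction in all prefixes became 1 with the sum over the members alone. In the block on library group, KO1 is alone in its group and adds nothing to the genotype difference. The cause of these changes was not tested.

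None of the differences that turned direction had an unadjusted p under 0.05 in the reported fit; that of Cldn4 in the stratum intermedium passed it in opposite directions without WT10 and without WT5. In the stratum intermedium they were Cldn1 (-0.12) and Cldn17 (0.28) with sex as a covariate, Cldn5 (-0.27) and Cldn8 (-0.020) with the replicate block, and Cldn7 with library weights (0.21), library group as a block (0.45) and sex as a covariate (0.44). On leaving out a library, the ameloblast differences ranged from -0.95 to 3.71 for Cldn2, -1.35 to 0.17 for Cldn5 and -1.37 to 0.92 for Cldn11. Those in the stratum intermedium ranged from -0.44 to 0.64 for Cldn1, -1.41 to 1.25 for Cldn4, -0.27 to 0.26 for Cldn5, -0.47 to 0.45 for Cldn7, -0.020 to 0.28 for Cldn8 and -1.68 to 0.22 for Cldn17. Layer differences ranged from -0.54 to 3.53 for Cldn4, -1.32 to 0.062 for Cldn5, -1.67 to 0.093 for Cldn7 and -2.40 to 0.46 for Cldn11. Deviations from the genotype mean gave r of 0.0862 and -0.116 between libraries of a replicate number in ameloblasts. In the stratum intermedium r was -0.186 and -0.133. Library groups shared by both genotypes gave r of 0.273 and 0.116, and of 0.186 and 0.00593. With 2 WT libraries, the deviations of WT5 are those of WT10 with the sign turned. The values -0.116 and 0.116, and -0.186 and 0.186, are therefore the same comparison. Whether either label pairs the libraries cannot be told from these values. With the replicate block 0 genes passed in either layer, with 354 and 185 at an unadjusted p under 0.05. Low members such as Cldn2 and Cldn7 are limited by their level near the listing floor.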
